A study of Rattus norvegicus with 44 samples.

Results

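The genes described here build the acid interior of the lysosome and carry out its protein breakdown: the subunits of the vacuolar proton pump (symbols beginning Atp6v0 or Atp6v1) with its accessory proteins (Atp6ap1, Atp6ap1l and Atp6ap2), the cathepsins named by a single letter, and the lysosome-associated membrane proteins (LAMPs). They were chosen by symbol, and a member had to reach a normalized read count of 10 in at least 6 of the 22 libraries of a hippocampal region. Of 20171 genes in the series, 41 symbols matched and 34 met this minimum: 33 of 40 matching symbols in CA1, and 34 of 40 in the dentate gyrus (DG). The 34 comprised 7 subunits of the membrane sector of the pump, 10 of its catalytic sector, 3 accessory proteins, 11 cathepsins and 3 LAMPs. Of these, Lamp2 was analysed in DG alone, because the deposited CA1 values do not list it. Its level in CA1 is therefore not known.

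Polyadenylated RNA was sequenced from CA1 and from DG of 22 male rats, each rat giving 1 library per region. Young rats of 5 to 7 months received weekly intraperitoneal injections for 7 weeks of either saline vehicle (8 rats) or lipopolysaccharide (LPS) at 1 mg/kg (8 rats). LPS is a bacterial cell wall component that provokes systemic inflammation. Aged rats of 14 to 16 months received vehicle (6 rats), and no aged rats received LPS. Tissue was taken 48 h after the seventh injection, and the design sets LPS against young vehicle, age against young vehicle, and young LPS against aged vehicle. The last of these comparisons differs in age and treatment together, and each group serves in 2 of the 3 comparisons, so that the comparisons share libraries and are given side by side.

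Lysosomes degrade proteins, lipids and sugars taken up from outside the cell or delivered by autophagy. Their proton pump has a membrane sector, V0, through which protons pass, and a catalytic sector, V1, which hydrolyses ATP, and the sectors assemble and separate reversibly. In neurons the same pump also acidifies synaptic vesicles and so drives transmitter loading. Cathepsins are the main lysosomal proteases and depend on the low pH that the pump maintains, and the LAMPs line the limiting membrane. In brain, Ctss and Ctsz are strongly expressed by microglia, while most pump subunits are abundant in neurons.

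Many lysosomal genes carry the palindrome TCACGTGA, the core of the element bound by the transcription factor TFEB, near their start. In the RefSeq promoters (250 bases before to 50 bases after the gene start, build GRCr8), this motif was found in 4 of 29 members with a promoter sequence (13.8%), in 238 of 27457 promoters of all genes (0.867%) and in 168 of 10540 promoters of the genes tested (1.59%). The shorter CACGTG, which lies within TCACGTGA, occurred in 5 of 29 member promoters (17.2%), against 6.65% of all promoters and 9.15% of those of tested genes. Both motifs read the same on either strand. The windows upstream of the gene start are shown because Ctsd and Lamp1 recur in the results below, with the motif in capitals and each window written in the direction of its gene. Lamp1 has 2 copies whose windows overlap, Ctsd has its copy directly before the start, and Atp6v0e1, the fourth gene, has its copy after the start, which is not shown.
Atp6v0d1 (chr19:50357278-50357317, minus strand, motif 53 bases before the start): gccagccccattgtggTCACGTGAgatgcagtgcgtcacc
Ctsd (chr1:206968822-206968848, minus strand, motif 11 bases before the start): gcccctcgcccgcgtcTCACGTGAccc
Lamp1 (chr16:83075106-83075145, minus strand, motif 66 bases before the start): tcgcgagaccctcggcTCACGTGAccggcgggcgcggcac
Lamp1 (chr16:83075079-83075118, minus strand, motif 39 bases before the start): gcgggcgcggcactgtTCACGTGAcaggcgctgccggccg
A match describes the letters only; binding was not measured.

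Library depth, as reads recovered from the deposited values, spanned 12292346 to 18749663 for CA1, and 12130182 to 23519791 for DG. All 10 pan-neuronal marker genes were detected in both regions. The summed CA1 pyramidal markers reached 23010 to 56130 normalized reads across the CA1 libraries, against 1179 to 15710 across the DG libraries. The dentate granule markers held 756 to 6278 across CA1, against 6083 to 10550 across DG. The 2 regions were normalized separately, so these ranges are only a check of the dissection. Some DG libraries held more CA1 marker RNA than others: the group medians were 4113 in young vehicle, 5529 in young LPS and 10130 in aged rats. One aged CA1 library, from rat 2532, stood apart from the other 21: genes with ribosomal protein symbols took 0.534% of its reads, against 0.782% to 1.40% elsewhere in CA1, and its summed neuronal markers reached 141800 against 76340 to 99830. Results that rest on it are given with and without it.

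The members that stayed below the minimum are subunits and proteases better known from other organs. Atp6v1b1 and Atp6v1g3 (kidney forms of V1 subunits) and Atp6v0d2 (an osteoclast form of a V0 subunit) were at 0 reads in 14 to 20 of 22 libraries, and none of them exceeded 5.27 normalized reads in any library. Ctsw, a lymphocyte cathepsin, peaked at 7.04 in CA1 and 10.9 in DG, Lamp3 at 7.29 and 12.1, and Ctsq, listed in CA1 only, at 0.954. Closest to the limit from below was Atp6v1e2, with 3 libraries at 10 or more in CA1 and 2 in DG. Closest from above were Atp6ap1l in DG, with 15 such libraries, and Atp6v1c2 in CA1, with 20. The neighbouring forms of the same subunits, Atp6v0d1, Atp6v1b2, Atp6v1e1 and Atp6v1g2, were past the minimum in both regions.

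No pump, cathepsin or LAMP gene of young rats differed past the adjusted threshold after repeated LPS, which does not show that levels were unchanged. In CA1 no member passed an adjusted p of 0.05 (0.0% of 14915 genes did), and the median log2 change over the 33 members was 0.01, the same as over all genes tested. In DG no member passed either (0.0134% of 14904 genes did), and the median change was -0.02 with 14 of 34 members above 0. Without adjustment, 1 CA1 member was higher and 0 were lower (3.59% and 3.27% of all genes), and in DG 0 were higher and 2 were lower (3.84% and 3.68%). The members counted without adjustment are given below with their values, and their share is near that of all genes.

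The CA1 member with the lowest p after LPS was Ctsd, the major aspartic protease of the lysosome. Its normalized reads were 3063 at the lowest, 3838 at the median and 5776 at the highest in young vehicle, 3847, 4883 and 7264 in young LPS, and 3520, 4250 and 4863 in aged rats. All 8 LPS libraries lay above the young vehicle median, but the groups overlapped. The log2 change after LPS was 0.30 ± 0.13 (SE, n = 8 and 8, limma, unadjusted p = 0.0301, adjusted p = 0.654), and in DG it was -0.04. The CA1 minus DG difference of the LPS change was 0.34 for Ctsd (unadjusted p = 0.0168, adjusted p = 0.340).

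In DG the pump members with low p were both V0 subunits. Atp6v0e1 encodes a small membrane subunit of V0. In DG it had 252, 282 and 329 normalized reads (lowest, median, highest) in young vehicle, 208, 237 and 291 in young LPS, and 288, 315 and 369 in aged rats. The 8 LPS libraries were lowest as a group, 7 of them below the young vehicle median, with the aged libraries highest. Its log2 change after LPS was -0.27 ± 0.09 (SE, limma, unadjusted p = 0.00484, adjusted p = 0.515).

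Atp6v0b, which encodes a proteolipid subunit of the proton-carrying ring, was also lowest after LPS in DG. Young vehicle libraries held 2292, 2664 and 2988 normalized reads, young LPS libraries 2108, 2286 and 2591, and aged libraries 2500, 2644 and 2976. None of the 8 LPS libraries reached the young vehicle median, although the ranges overlapped. The log2 change was -0.19 ± 0.07 (SE, limma, unadjusted p = 0.00960, adjusted p = 0.535). Atp6v0c, the main proteolipid of the ring, had a DG change of -0.14 ± 0.11, and 6 of the 7 V0 members were below 0 in DG while 6 of 7 were above 0 in CA1. Over all genes 48.8% were above 0 in DG and 52.2% in CA1, and the V0 counts were not tested.

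The region difference of the LPS change was tested directly on CA1 minus DG within each rat. No member passed the adjusted threshold (0.0% of 14637 genes did). Without adjustment 4 members had a more positive LPS change in CA1 and 0 a more negative one (6.38% and 7.06% of all genes): Ctsd as above, Atp6v0b by 0.42 (unadjusted p = 0.0140), Atp6v0c by 0.33 (unadjusted p = 0.0185) and Atp6v0e1 by 0.31 (unadjusted p = 0.0370). Their adjusted p in limma was between 0.338 and 0.366.

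The other members singled out here had LPS estimates near their errors when all libraries were used. In CA1 the log2 change was 0.28 ± 0.24 for Ctsz (cathepsin Z, a carboxypeptidase), 0.17 ± 0.15 for Ctss (cathepsin S, which stays active at neutral pH), 0.09 ± 0.10 for Ctsb, 0.10 ± 0.10 for Lamp1 and 0.04 ± 0.13 for Atp6v0e1. Atp6v1a, the catalytic ATP-hydrolysing subunit, had -0.17 ± 0.16 in CA1 and 0.01 ± 0.07 in DG. DG values were 0.15 ± 0.16 for Ctsz, 0.01 ± 0.11 for Ctss, 0.04 for Ctsb, -0.10 ± 0.07 for Lamp1 and 0.16 ± 0.12 for Lamp2. Each of these changes lay within 2 standard errors of 0. The cathepsin values depended on high young vehicle libraries: without rat 2572 the CA1 change was 0.42 for Ctsz (limma, unadjusted p = 0.0688) and 0.30 for Ctss (unadjusted p = 0.0172). Rat 2572 held the highest young vehicle value of both genes in CA1, so leaving it out raises both changes by construction. The p-values of fits without it are descriptive only. Without rats 2526, 2572 and 2532 together the CA1 change was 0.49 for Ctsz (unadjusted p = 0.00910, adjusted p = 0.337), 0.30 for Ctss (unadjusted p = 0.0120, adjusted p = 0.337), 0.15 for Ctsb and 0.16 for Lamp1. In DG without the same rats Ctsz had 0.37 (unadjusted p = 0.00931, adjusted p = 0.486) and Atp6v0c -0.07, and Ctsd turned from -0.04 to 0.11. Rats 2526 and 2572 are both young vehicle rats, so leaving them out shifts the group that LPS is set against. The p-values of these fits are likewise descriptive only, in both regions.

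**Figure D1:**
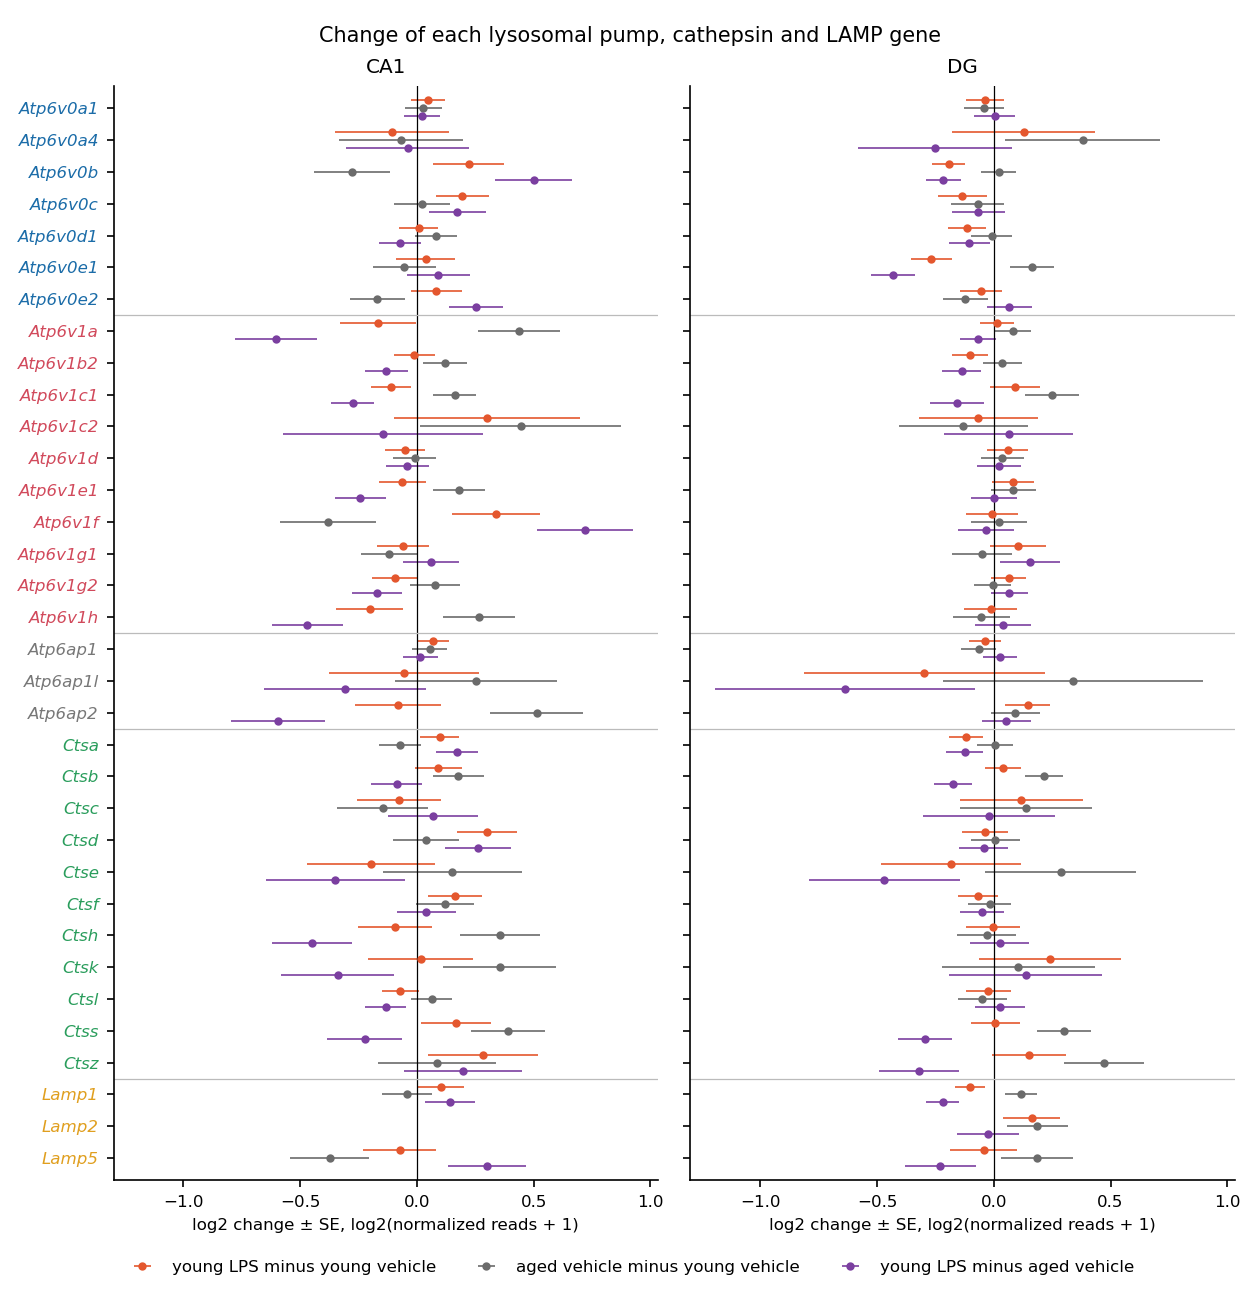
The log2 change (horizontal axis, points with SE bars, on log2 of normalized reads plus 1) is plotted for every member past the minimum, by role, in CA1 (left) and DG (right), with 1 colour for each of the 3 comparisons. The widest spread lies among the pump genes of CA1, where young LPS minus aged vehicle ran from -0.60 to 0.72, while in DG most members lie near 0.

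Age alone moved no member past the adjusted threshold in either region (0.0134% of all genes passed in CA1 and 0.0134% in DG). The members with unadjusted p below 0.05 were mostly above 0: in CA1, 4 were higher and 1 was lower in aged rats (6.82% and 5.80% of all genes), and in DG 4 were higher and 0 were lower (1.26% and 1.73%). Cathepsin S was in both sets. The median change of the members was 0.08 in CA1 and 0.04 in DG, against 0.00 and 0.01 over all genes.

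Ctss in DG had 1022, 1190 and 1890 normalized reads (lowest, median, highest) in young vehicle, 1067, 1249 and 1600 in young LPS, and 1436, 1558 and 1700 in aged rats. All 6 aged libraries lay above the young vehicle median, and 1 young vehicle library lay above the aged median. The log2 change with age was 0.30 ± 0.11 (SE, n = 6 and 8, limma, unadjusted p = 0.0139, adjusted p = 1.00). In CA1 the same gene had 1424, 1500 and 3130 reads in young vehicle and 1711, 2106 and 2834 in aged rats, with a log2 change of 0.39 ± 0.16 (unadjusted p = 0.0221, adjusted p = 0.393). The highest young vehicle library in CA1, rat 2572, lay above the whole aged range. The next young vehicle library, at 1732, lay just above the lowest aged one.

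Ctsz in DG had 134, 169 and 335 normalized reads in young vehicle, 161, 204 and 308 in young LPS, and 201, 273 and 308 in aged rats. Again all 6 aged libraries lay above the young vehicle median and the ranges overlapped. Its log2 change with age was 0.47 ± 0.17 in DG (limma, unadjusted p = 0.0101, adjusted p = 1.00) and 0.09 ± 0.25 in CA1. The CA1 value was 0.33 without rat 2532 (unadjusted p = 0.151) and 0.54 without rats 2526, 2572 and 2532 (unadjusted p = 0.0112, adjusted p = 0.4996). Rat 2572 held the highest young vehicle Ctsz value in CA1, so leaving it out raises this change by construction. Ctsb, a cysteine protease, had 5631, 5992 and 7345 reads in young vehicle and 6172, 7152 and 8457 in aged DG, a log2 change of 0.21 ± 0.08 (unadjusted p = 0.0146, adjusted p = 1.00). The remaining DG member, Atp6v1c1, a V1 stalk subunit that links the sectors, had 0.25 ± 0.12 (unadjusted p = 0.0391, adjusted p = 1.00).

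Microglial marker levels are given beside these cathepsins. Of 16 microglial markers listed, 15 were measured, none of them at 0 in any library, and 13 of 15 had a positive change with age in DG (median 0.09), with 0 of 15 at an unadjusted p below 0.05. Their summed level ran from 4791 through a median of 5573 to 7982 normalized reads in young vehicle, from 5135 through 5608 to 6180 in young LPS, and from 5681 through 6393 to 6803 in aged rats, so that the highest young vehicle library lay above every aged one. The part of these markers in the Ctss, Ctsz and Ctsb values was not tested, and in tissue RNA more microglia and more RNA per cell cannot be told apart. In CA1 the median sums were 6499 in young vehicle, 7705 in young LPS and 7296 in aged rats, with 13 of 15 markers positive with age (median 0.15).

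The CA1 members with low p for age leaned on the library of rat 2532. Atp6ap2, the prorenin receptor and an accessory protein of the pump, had a log2 change of 0.51 ± 0.20 (limma, unadjusted p = 0.0165), Atp6v1a 0.44 ± 0.18 (unadjusted p = 0.0192) and Ctsh, an aminopeptidase, 0.36 ± 0.17 (unadjusted p = 0.0475). The adjusted p of each was 0.393. Without rat 2532 the changes were 0.24, 0.21 and 0.13. That of Ctss was 0.31, with an unadjusted p of 0.0618 in limma. Lamp5, a LAMP of neurons, was the only CA1 member with a low p below 0, with -0.37 ± 0.17 (unadjusted p = 0.0351, adjusted p = 0.393). It had 322, 571 and 867 reads in young vehicle and 305, 391 and 616 in aged CA1, with overlapping ranges, and its change was -0.34 without rat 2532 (unadjusted p = 0.0606).

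Between the regions, no member's age change differed past the adjusted threshold (0.0% of 14637 genes did). Without adjustment 1 member was higher and 1 was lower in CA1 minus DG (2.68% and 2.84% of all genes). Ctsh differed by 0.39 (unadjusted p = 0.0409) and Lamp5 by -0.56 (unadjusted p = 0.0229), each with an adjusted p of 0.727 in limma. Without rat 2532 the difference of Ctsh was 0.21 (unadjusted p = 0.189). Lamp5 had 752, 1125 and 1641 normalized reads in young vehicle DG and 1165, 1196 and 1497 in aged DG, so that its age change had opposite signs in the 2 regions, neither past the adjusted threshold. Of 6 dentate granule markers tested, 0 had a positive age change in CA1 (median -0.33) and 2 in DG (median -0.19). The part of dissection in the Lamp5 values was not tested.

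**Figure D2:**
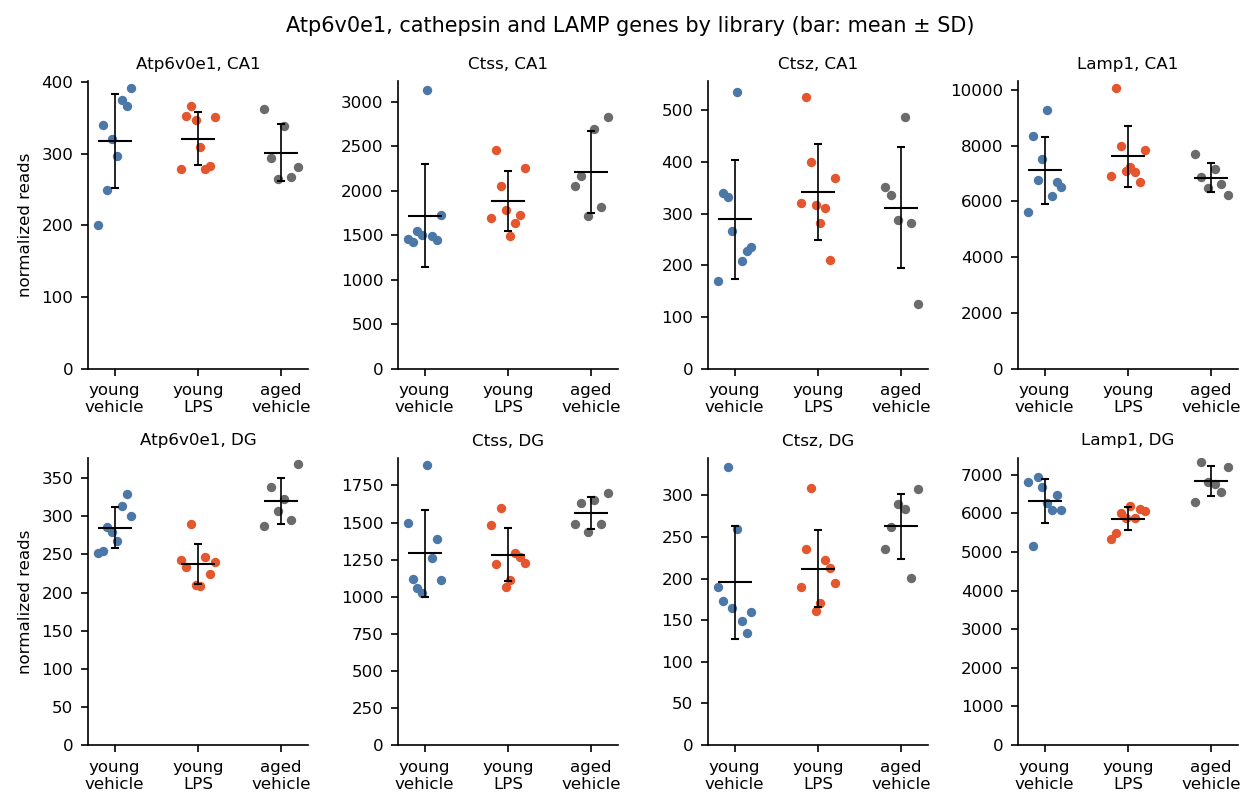
Normalized reads (vertical axis, from 0) of Atp6v0e1, Ctss, Ctsz and Lamp1 in CA1 (top) and DG (bottom), 1 point per library, with bars at the mean ± SD of each group. In DG the 8 young LPS libraries of Atp6v0e1 run from 208 to 291 and those of Lamp1 from 5335 to 6187, below or at the low edge of the aged libraries, and in CA1 the groups overlap.

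In CA1 young LPS and aged rats differed past the adjusted threshold in 2 of 33 members, a share no greater than that of all genes. Atp6v1f rose and Atp6v1a fell in young LPS relative to aged rats, the only members past the adjusted threshold there: 1 higher (3.49% of all genes) and 1 lower (5.24%). Without adjustment 3 members were higher and 6 were lower (17.3% and 18.5% of all genes), so the members' share without adjustment is no greater than that of all genes. Of the 9, 8 are pump or accessory genes and the other is Ctsh. Within the V1 sector 8 of 10 members were below 0 and within V0 5 of 7 were above 0, while the median of all 33 members was -0.04 against 0.02 over all genes. Of all genes 52.0% were above 0, and the counts by sector were not tested.

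Atp6v1f encodes a small V1 subunit of the central rotor. In CA1 it had 1103, 1661 and 2628 normalized reads (lowest, median, highest) in young vehicle, with a mean of 1715 ± 515 (SD, n = 8), 1479, 2100 and 3125 in young LPS, with 2166 ± 640 (n = 8), and 751, 1316 and 1856 in aged rats, with 1309 ± 351 (n = 6). All 8 LPS libraries lay above the aged median and no aged library reached the LPS median, but the ranges overlapped. The log2 change of LPS minus aged was 0.72 ± 0.21 (SE, limma, adjusted p = 0.0490). Young vehicle lay between the other groups, with changes of 0.34 for LPS and -0.38 for age.

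Atp6v1a in CA1 showed the opposite order. It had 6195, 8828 and 10383 reads in young vehicle (8621 ± 1264, SD, n = 8), 5689, 8138 and 8908 in young LPS (7685 ± 1141, n = 8), and 8810, 10410 and 25168 in aged rats (12474 ± 6278, n = 6). None of the 8 LPS libraries reached the aged median, and the value of 25168 belongs to rat 2532, with the next aged library at 10971. The log2 change of LPS minus aged was -0.60 ± 0.18 (SE, limma, adjusted p = 0.0490). Over all alternatives the adjusted p ran from 0.00703 to 0.123 for Atp6v1f and from 0.00897 to 0.121 for Atp6v1a. Leaving out rat 2532 ended both calls and brought the log2 changes to 0.57 (adjusted p = 0.123) and -0.38 (adjusted p = 0.121). Without that library 0 of 14915 genes passed, with 1785 higher and 1891 lower at an unadjusted p below 0.05. Leaving out any 1 of 15 of the 22 libraries, rat 2532 included, left no member past the threshold.

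Several further pump genes lay just beyond the threshold in CA1. Atp6v1h, a regulatory V1 subunit, had a log2 change of -0.47 (limma, adjusted p = 0.0530), with 1372, 1543 and 1925 normalized reads in young vehicle, 818, 1438 and 1801 in young LPS and 1521, 1741 and 3057 in aged rats. Atp6v0b had 0.50 (adjusted p = 0.0532), with 1564, 2316 and 2877 reads in young vehicle, 1887, 2653 and 3190 in young LPS and 993, 1936 and 2370 in aged rats. Both overlapped between groups, with Atp6v1h highest and Atp6v0b lowest in aged rats. Atp6v1c1 had -0.28 (adjusted p = 0.0545) and Atp6ap2 -0.60 (adjusted p = 0.0548). Ctsh had -0.45 (adjusted p = 0.0716), Atp6v0e2 0.25 (adjusted p = 0.123) and Atp6v1e1 -0.24 (adjusted p = 0.116). Without rat 2532 the changes were -0.33 for Atp6v1h, 0.32 for Atp6v0b, -0.33 for Atp6ap2 and -0.22 for Ctsh. Atp6v1c1 then had -0.29, Atp6v0e2 0.27 and Atp6v1e1 -0.18, and the adjusted p in limma of these 7 genes was between 0.122 and 0.286.

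Because reads also depend on transcript length, the ratio of reads of 2 subunits has meaning only between libraries. The ratio of Atp6v1a to Atp6v1f in CA1 ran from 2.36 through a median of 5.25 to 8.23 in young vehicle, from 1.83 through 3.93 to 6.02 in young LPS, and from 4.75 through 7.91 to 33.5 in aged rats. The ratio was thus lowest as a group after LPS and highest with age, with overlap, and rat 2532 was the extreme. In DG the group medians were 6.61, 6.17 and 6.16, and the full range was 2.81 to 7.91.

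In DG the young LPS and aged rats differed in other members, none past the adjusted threshold (0.0134% of 14904 genes passed). Without adjustment 0 members were higher and 5 were lower in LPS rats (4.59% and 4.51% of all genes). Atp6v0e1 was foremost, with a log2 change of -0.43 ± 0.09 (SE, limma, unadjusted p = 9.12e-05, adjusted p = 0.222). Its group means were 237 ± 26.1 in young LPS and 320 ± 30.02 in aged rats (SD, n = 8 and 6). On the recovered reads DESeq2 gave it an adjusted p of 0.0303.

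Lamp1, a major protein of the lysosomal membrane, had 5335, 5938 and 6187 normalized reads in young LPS and 6304, 6785 and 7323 in aged DG, with 5155, 6368 and 6927 in young vehicle. Every LPS library lay below every aged library, which was true of 0.235% of the genes tested. No other member showed such a separation in DG in that direction. Its log2 change was -0.22 ± 0.07 (limma, unadjusted p = 0.00412, adjusted p = 0.326). Atp6v0b had -0.22 ± 0.07 (unadjusted p = 0.00774, adjusted p = 0.375), Ctss -0.29 ± 0.11 (unadjusted p = 0.0159, adjusted p = 0.441) and Ctsb -0.17 ± 0.08 (unadjusted p = 0.0427, adjusted p = 0.529). Ctsz had -0.32 ± 0.17 (unadjusted p = 0.0707). Of 15 microglial markers, 1 had a positive LPS minus aged change in DG, with a list median of -0.18, against 48.0% of all genes positive. None of the markers passed the adjusted threshold, and 2 were lower at an unadjusted p below 0.05 in limma. Their part in the result was not tested.

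The LPS minus aged change differed between CA1 and DG for 4 members, 3 more positive in CA1 (5.53% of all genes) and 1 more negative (7.06%). Atp6v0b differed by 0.72 ± 0.17 (SE, limma on CA1 minus DG within rats, adjusted p = 0.0259), from 0.50 in CA1 and -0.22 in DG. Atp6v0e1 differed by 0.52 ± 0.15 (adjusted p = 0.0323), from 0.09 and -0.43. Atp6v1f differed by 0.75 ± 0.25 (adjusted p = 0.0494), from 0.72 and -0.03, and Atp6ap2 by -0.65 ± 0.21 (adjusted p = 0.0473), from -0.60 and 0.05.

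Without adjustment 7 members were more positive and 4 more negative in CA1 minus DG (16.3% and 16.9% of all genes). All 7 V0 members lay above 0 in this difference, the lowest at 0.017, and 8 of 10 V1 members below. Over all genes 52.5% lay above 0, and these counts by sector were not tested. Leaving out rat 2532 ended the 4 calls, with differences of 0.55 (adjusted p = 0.0781) for Atp6v0b, 0.47 (adjusted p = 0.0986) for Atp6v0e1, 0.60 (adjusted p = 0.162) for Atp6v1f and -0.42 (adjusted p = 0.164) for Atp6ap2. Without that library 0 of 14637 genes passed. No member passed without rat 2404, 2408, 2420 or 2543 either.

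**Figure D3:**
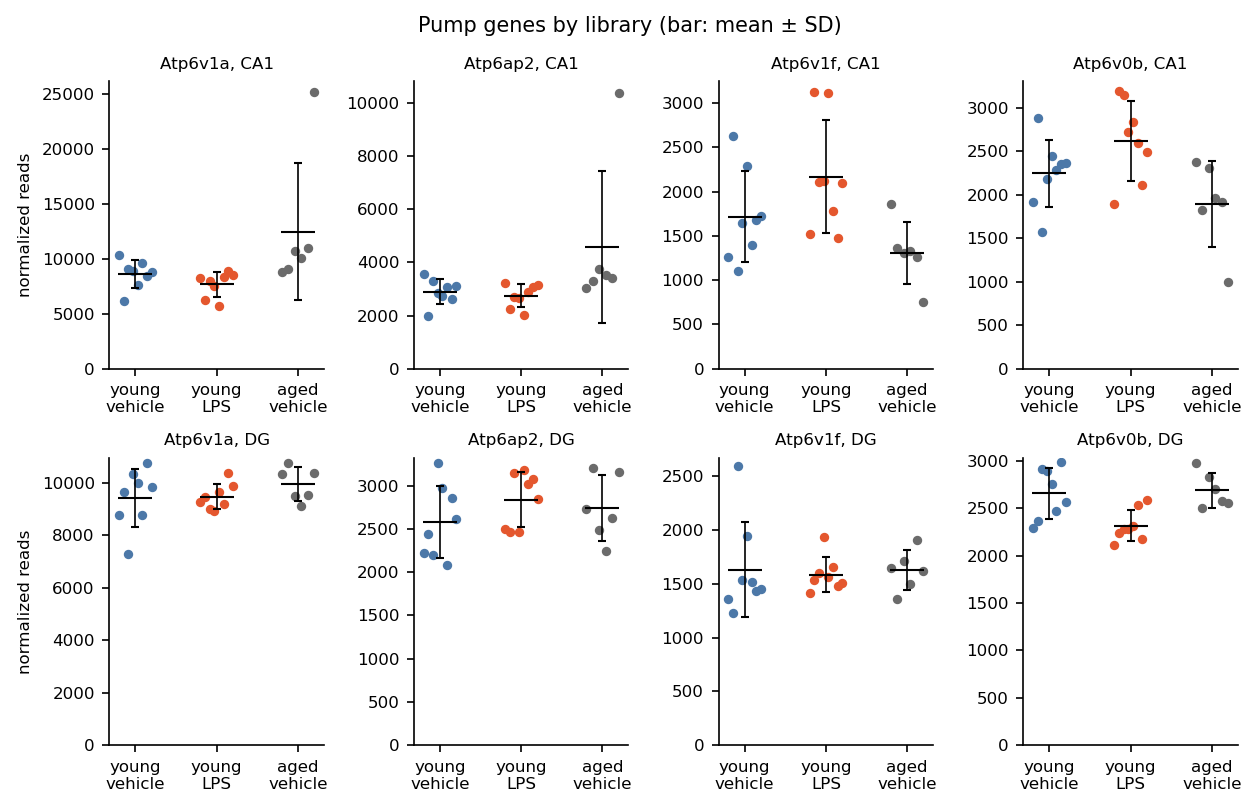
Normalized reads (vertical axis, from 0) of Atp6v1a, Atp6ap2, Atp6v1f and Atp6v0b in CA1 (top) and DG (bottom), 1 point per library, with bars at the mean ± SD of each group. In CA1 the aged library of rat 2532 lies far above the others for Atp6v1a (25168) and Atp6ap2 (10393), and the aged groups of Atp6v1f and Atp6v0b lie lowest.

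In CA1, Atp6v1f and Atp6v0b had changes of opposite sign to that of Atp6v1a between young LPS and aged rats. They also varied opposite to Atp6v1a among CA1 libraries of the same group. Both patterns come from the same libraries, so the second is not separate support for the first. With the group means subtracted, the log2 level of every other pump or accessory gene was correlated with that of Atp6v1a over the 22 libraries of a region, a gene chosen after its values were seen. This gave 38 relations, and p-values from 100000 permutations were adjusted over all of them. In CA1, 5 of 19 genes were positively related and 2 were negatively related to Atp6v1a. Genes outside the pump were not correlated with Atp6v1a, so how common such relations are among all genes is not known.

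Atp6ap2 followed Atp6v1a most closely in CA1, with a Pearson r of 0.978 and a Spearman rho of 0.940 (permutation, adjusted p = 0.000127 for r). Without the 2 libraries farthest in Atp6v1a, those of rats 2532 and 2543, r was 0.942. Atp6v1h had an r of 0.857 (rho 0.892, r 0.809 without the 2 libraries), Atp6v1e1 0.727 (rho 0.764, 0.712 without), Atp6v1g2 0.686 (rho 0.702, 0.607 without) and Atp6v0a4 0.675 (rho 0.548, 0.503 without). These partners include V1 stalk subunits and the accessory receptor.

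On the negative side were Atp6v1f, with an r of -0.832 (rho -0.909, r -0.841 without the 2 libraries, permutation, adjusted p = 0.000127), and Atp6v0b, with -0.805 (rho -0.778, r -0.661 without, adjusted p = 0.00350). The adjusted p of the 7 relations was at most 0.00769. In DG the positive partners were Atp6ap2 (r 0.710, rho 0.816, r 0.767 without the farthest libraries, rats 2526 and 2728), Atp6v1b2 (0.703, rho 0.693, 0.631 without), Atp6v1e1 (0.619, rho 0.596, 0.519 without) and Atp6v1c1 (0.590, rho 0.658, 0.631 without). Their adjusted p ran from 0.00358 to 0.0354, and no gene was negatively related past the threshold. There Atp6v1f had an r of -0.583 (rho -0.317, permutation, adjusted p = 0.107), which was -0.173 without the 2 farthest libraries, and Atp6v0b had 0.0594 (rho 0.132). These values were not tested for a difference between the regions.

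**Figure D4:**
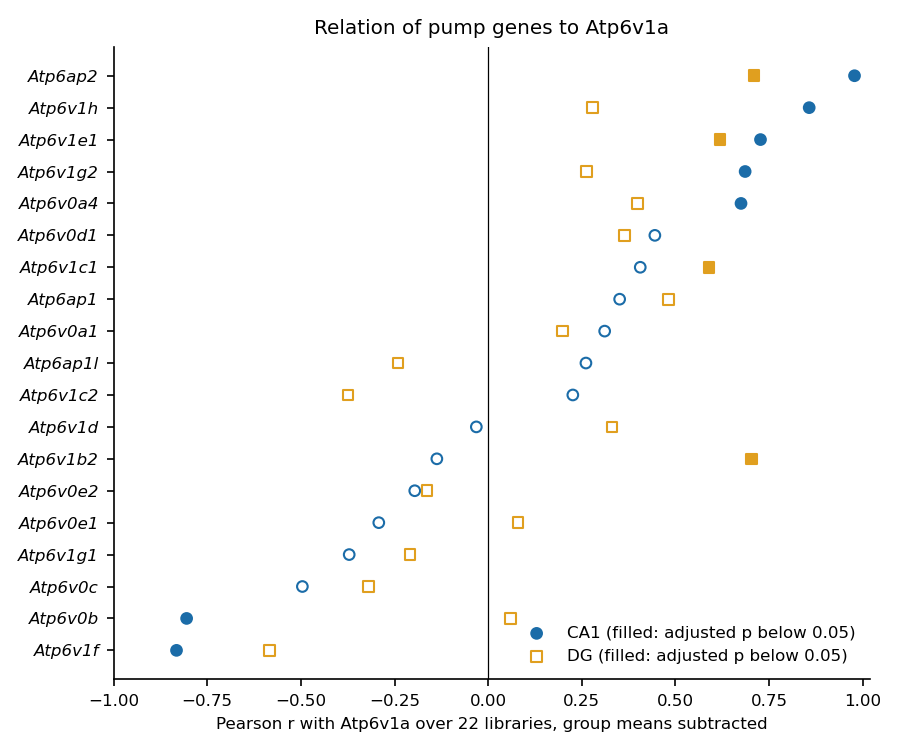
Pearson r with Atp6v1a (horizontal axis, from -1 to 1, over 22 libraries with group means subtracted) for each pump and accessory gene (vertical axis), circles for CA1 and squares for DG, filled where the adjusted p is below 0.05. In CA1 the genes run from -0.832 (Atp6v1f) to 0.978 (Atp6ap2), and in DG the filled points are all positive.

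The members were also set against markers of microglia and neurons. For every member, the log2 level with group means subtracted was correlated with the mean of the microglial and of the neuronal markers, 134 relations in all over 22 libraries each, with permutation p adjusted over the 134. The list genes and the members come from the same libraries and share their depth and dissection. In CA1, 6 members were positively related to the microglial markers and 1 was negatively related. Other genes were not correlated with these markers, so the share over all genes is not known.

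The 4 largest positive values with microglia in CA1 were those of Ctsz (r 0.817, rho 0.763, adjusted p = 0.000670), Lamp1 (0.746, rho 0.706), Ctss (0.717, rho 0.538) and Ctsd (0.655, rho 0.691). Without the 2 farthest libraries, those of rats 2420 and 2572, the r was 0.716 for Ctsz, 0.727 for Lamp1, 0.428 for Ctss and 0.695 for Ctsd, so that the relation of Ctss rested in part on those libraries. The adjusted p of Lamp1, Ctss and Ctsd was 0.00380, 0.0244 and 0.0173. Lowest were Atp6v1c2 (-0.666, permutation, adjusted p = 0.0244), Lamp5 (-0.568), Atp6v1c1 (-0.476) and Atp6v1a (-0.389). With the neuronal markers, Atp6v0a1, the membrane subunit that carries the pump to synaptic vesicles, had the highest r in CA1 (0.706, rho 0.773, 0.544 without rats 2410 and 2526, adjusted p = 0.0109), followed by Atp6v1d (0.620, rho 0.574, 0.469 without), Atp6v0c (0.576, rho 0.618, 0.650 without) and Ctsd (0.560, adjusted p = 0.0694). The lowest were Atp6v1c2 (-0.596), Atp6ap1l (-0.362), Atp6v1c1 (-0.298) and Ctsk (-0.245).

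In DG, 6 members were positively related to the microglial markers, led by Ctsh (r 0.908, rho 0.853, 0.840 without rats 2526 and 2572, permutation, adjusted p = 0.000804), Ctsz (0.791, rho 0.680, 0.613 without), Atp6v1g1 (0.780, rho 0.743, 0.588 without) and Ctsd (0.760, rho 0.549, 0.463 without). Lamp2 had 0.678 (rho 0.770, 0.738 without, adjusted p = 0.000804). At the other end were Atp6v1b2 (-0.485), Atp6v1c2 (-0.374), Atp6v1a (-0.364) and Lamp5 (-0.335). With the neuronal markers the highest were Lamp5 (0.917, rho 0.879, 0.889 without the farthest libraries, adjusted p = 0.000670), Atp6v0a1 (0.819, rho 0.765, 0.762 without), Atp6v1b2 (0.633, rho 0.551, 0.553 without) and Atp6v0c (0.629, adjusted p = 0.0571), and the lowest were Atp6ap1l (-0.403), Lamp2 (-0.395), Ctss (-0.364) and Ctsb (-0.262). Lamp2 and Lamp5 thus lay at opposite ends of the same scale in DG.

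**Figure D5:**
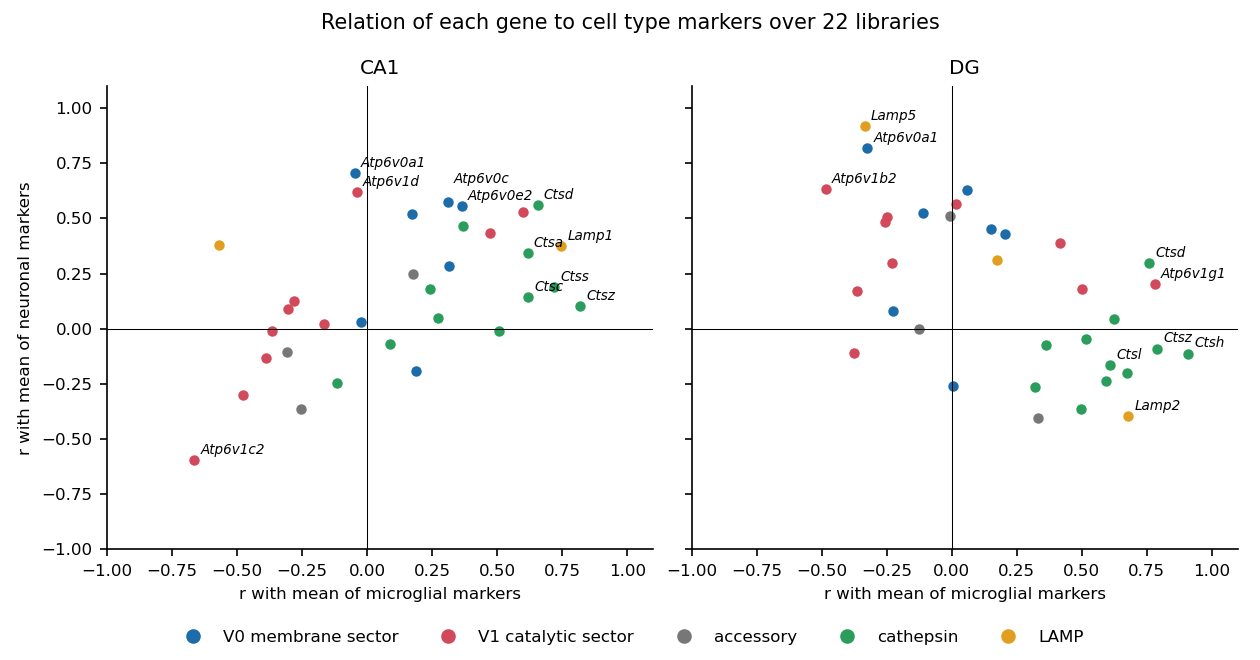
For each member, r with the mean of microglial markers (horizontal axis) against r with the mean of neuronal markers (vertical axis) over 22 libraries with group means subtracted, CA1 left and DG right, coloured by role, with names where either adjusted p is below 0.05. Cathepsins lie mostly to the right, with Ctsh at 0.908 and Ctsz at 0.791 in DG, and Atp6v0a1 lies at the top in both regions (0.706 and 0.819).

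Other genes of the lysosome were read through 5 lists: 39 hydrolases tested, 22 membrane proteins, 20 regulators, 13 pump partners and 5 cathepsin inhibitors, 99 genes in all. After LPS none passed the adjusted threshold of limma in CA1 or DG, and without adjustment 6 were higher and 3 lower in CA1, and 2 and 3 in DG, near the shares of all genes (3.59% and 3.27%, 3.84% and 3.68%). Of the 39 hydrolases, 30 had a positive LPS change in CA1 (median 0.09) and 8 in DG (median -0.06), and the CA1 minus DG difference was positive for 30 of 39 (median 0.16). Over all genes 52.2% were positive in CA1, 48.8% in DG and 52.3% in the difference; these counts were not tested, and without adjustment 2 hydrolases were higher in CA1 and 2 were lower in DG. Examples with low unadjusted p were Npc2, a cholesterol carrier of the lumen, with 0.35 in CA1 (unadjusted p = 0.0189), and Grn, a lysosomal growth factor precursor, with 0.30 (unadjusted p = 0.0272). The region difference was 0.46 for Grn (adjusted p = 0.338 in limma).

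With age alone none of the 99 genes passed in either region, and without adjustment 10 were higher and 6 lower in CA1 (6.82% and 5.80% of all genes), and 3 and 1 in DG (1.26% and 1.73%). Among those with low p were Cst6, a cystatin, with -0.90 in CA1 (limma, unadjusted p = 0.00101, adjusted p = 0.393), Mitf, a transcription factor of the TFEB family, with 0.57 (unadjusted p = 0.00637), and in DG Lgmn, the asparagine-cleaving protease that processes cathepsins, with 0.20 (unadjusted p = 0.0117). Tfeb itself had 0.21 after LPS and -0.42 with age in CA1, and -0.01 and 0.04 in DG. Tcirg1, a further V0 subunit, had 0.26 and -0.01 in CA1 and -0.09 and 0.05 in DG, and Cst3, the abundant brain cystatin, had -0.05 and 0.13 in CA1 and -0.08 and -0.04 in DG.

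Between young LPS and aged rats in CA1, 4 of the 99 genes were higher (3.49% of all genes) and 9 were lower (5.24%) past the adjusted threshold. Among pump partners, Rnasek rose by 0.72 and Rogdi by 0.54, while Dmxl2, a pump assembly factor, fell by 0.50 and Oxr1 fell by 0.48. Lamtor4, a subunit of the scaffold that anchors mTORC1 to lysosomes, rose by 0.42, and the sialidase Neu1 rose by 0.68. Among the hydrolases Asah1 fell by 0.49 and Lipa fell by 0.34, the membrane proteins Tmem106b, Slc38a9 and Laptm4a fell by 0.74, 0.56 and 0.37, and the inhibitor Serpini1 fell by 0.71. Adjusted p in limma was between 0.0490 and 0.0499 for the 13 genes, and Tfeb had 0.63 (adjusted p = 0.0602). Leaving out rat 2532 ended these 13 calls as it did the member calls, since 0 of 14915 genes then passed. The member calls also ended without other single libraries, 15 of the 22 with rat 2532 included. Both member calls had an adjusted p of 0.0490 in limma, just under the threshold. The loss of a call therefore cannot show how far it rested on that rat. As with Atp6v1a and Atp6v1f, genes of the same organelle thus went both ways.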

How the data were processed

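For each region the authors deposited a gene table of reads scaled per library, a signal that is never negative. Per the submitters' processing notes, STAR, Partek, DESeq2 and the rn6 build were used, with no versions given. The values behave as read counts divided by a factor of each library. Whole reads were recovered within 0.1 read, for 99.7% of CA1 values and 99.98% of DG values; 242 genes in CA1 and 11 in DG held fractions. Genes with a value of 10 or more in at least 6 libraries were fitted with limma 3.58.1 (R 4.3.3) on log2(value + 1), trend and robust, all 3 groups of a region together, Benjamini-Hochberg over all genes, threshold 0.05; region differences used CA1 minus DG per rat. A log2 change on this scale understates changes of low genes. The script was tested on simulated data. On the recovered reads, edgeR 4.0.16 called 6 and DESeq2 1.42.0 called 7 members for young LPS minus aged vehicle in CA1, against 2 in limma; over all genes they called 2144 and 3299, against 1302. Both called 0 members for LPS or age against young vehicle.

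The members, gene lists and rules for naming genes were chosen with earlier results of these data known. Named were members past the adjusted threshold, otherwise those with unadjusted p below 0.05, a short fixed set (Ctsz, Ctss, Atp6v0e1, Ctsd, Ctsb, Lamp1, Lamp2, Atp6v0c, Atp6v1a, Tfeb, Tcirg1, Cst3), the 4 highest and lowest marker relations, and up to 6 genes of each pathway list; some genes of these lists are not reported here. Rats carry the same number in both regions because the tissue came from the same animal. Deviations of the paired libraries correlated with a median of 0.0513 over 22 rats, and 8 rats exceeded 0.1. For 1 rat the CA1 library correlated best with the DG library of the same rat. The pairing therefore rests on the labels and is not shown by the values.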

Additional observations from a re-analysis of the deposited data

Results flagged for a closer look

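In 12 of 87 combinations of gene, region and group (15 genes, 13.8%) 1 library lay farther from its neighbours than Dixon's 95% limit for its group. That limit assumes normal values, while these were not on a log scale. The combinations also share libraries, so the share cannot be compared with a rate from chance. The CA1 library of aged rat 2532 was such a high value for Atp6v1a (25168 normalized reads, next 10971), Atp6ap2 (10393, next 3748), Ctsb (12981, next 8282) and Ctsh (2122, next 1069). The CA1 library of young vehicle rat 2572 was high for Ctsb (9566, next 7666), Ctss (3130, next 1732) and Ctsz (535.6, next 339.4). Single high values in CA1 were Atp6v0c in aged rat 2411 (14620, next 9995) and Lamp1 in young LPS rat 2404 (10083, next 7988). In DG they were, all in young LPS rats, Atp6v0e1 in rat 2408 (290.6, next 246.5), Atp6v1c1 in rat 2573 (3545, next 2841) and Atp6v1f in rat 2527 (1939, next 1653).

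The young LPS minus aged vehicle change differed between CA1 and DG for Atp6v0b by 0.7152, for Atp6v0e1 by 0.5249, for Atp6v1f by 0.7541 and for Atp6ap2 by -0.6481 on the log2 scale, by the test of the difference within rats.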

How the results depend on the processing

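No called value changed sign. For young LPS minus aged vehicle in CA1, where 2 members passed, 0 passed with no filter on low values, with only the 2 groups in the fit, with the dissection score as covariate and without rats 2526, 2572 and 2532; 6 passed with a mean of at least 50, with library quality weights and in edgeR, and 7 in DESeq2 and with the rats' number series as covariate. Leaving out 1 library at a time gave 0 to 7 there, with 0 for 15 of the 22 libraries and a call only without rat 2403, 2411, 2412, 2523, 2547, 2572 or 2573. The region difference for the same groups, 4 members, became 2 with no filter and 7 with the number series, and 0 to 7 when 1 library was left out, with 0 for 5 libraries (rats 2404, 2408, 2420, 2532 and 2543). Library quality weights called 2 members for age in CA1 (Lamp5, Ctss), 1 for age in DG (Ctsz) and 2 for LPS minus aged in DG (Atp6v0e1, Lamp1), where DESeq2 called 1 (Atp6v0e1). Without the 2 farthest libraries 7 pump genes in place of 4 were related to Atp6v1a in DG, a setting chosen after seeing the data. The cause of these shifts was not tested. The region test takes the rat as the replicate block; with no replicate block it also called 4 members (Atp6v0b, Atp6v0e1, Atp6v1f and Lamp1, with Atp6ap2 at an adjusted p of 0.0531).

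The 6 called gene values kept their sign in all 180 alternatives and passed the threshold in 98. Of 82 values not called, 17 took another sign in at least 1 alternative, and 12 of 2632 alternatives passed. The median change of the members moved by less than the SD of their median between libraries in every alternative. It still took both signs for LPS minus young vehicle in CA1 (-0.0234 to 0.0461) and in DG (-0.0373 to 0.0532). The same held for young LPS minus aged vehicle in CA1 (-0.0811 to 0.0167). Genes with few reads, such as Atp6ap1l and Ctse, have wide errors.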
